A study of Rattus norvegicus with 17 samples.

Results

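The 9 genes Stab2, Stab1, Lyve1, Pecam1, Kdr, Tek, Cdh5, Vwf and Adgrl4, which mark the lining of liver vessels, were followed in rat liver after 4 daily doses of a flame retardant. They were chosen by name, as markers of sinusoidal and vascular endothelium, and each was read from the brightest probe set that carried its symbol. On the array, 8 of the 9 had such a probe set, out of 14217 genes measured, and Cdh5, the endothelial cadherin, was not analysed here. Male Harlan Sprague-Dawley rats received isopropylated phenol phosphate (IPP), an aryl phosphate used as a flame retardant and plasticizer, in corn oil by oral gavage on 4 days in a row. The vehicle group of 5 rats had corn oil alone, and 3 rats each had 76.5, 153, 305.5 or 611 mg/kg, which is 0.169, 0.338, 0.675 or 1.35 mmol/kg. The age of the rats is not given in the sources used here. RNA came from pieces of the left liver lobe, 1 array was made per rat, and all values are log2 signals as deposited.

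The smallest vessels of the liver, the sinusoids, are lined by endothelial cells with open pores and no continuous basement membrane, and these cells clear hyaluronan, denatured collagen and small immune complexes from blood through scavenger receptors. Endothelium of larger vessels shares general markers such as Pecam1 and carries more of the clotting protein von Willebrand factor. Signals through growth factor receptors such as Kdr and Tek maintain both kinds of endothelium.

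The arrays had medians of 6.29 to 6.4 and their number, 3 to 5 per group, limits the precision. The 3 arrays least correlated with the others were those of 76.5 mg/kg rats 2 and 3 and of 611 mg/kg rat 2. The array of 611 mg/kg rat 2 also had the largest 3' minus 5' difference of the GAPDH control probe sets, a sign of RNA length, at 2.89 against 0.93 to 1.56 on the other 16. The 14 measured hepatocyte markers averaged a log2 signal of 13.8 to 14.1 over all groups. Differences are log2 dose minus vehicle with the standard error (SE) of 1 limma fit over all 17 arrays, and p-values were adjusted by Benjamini-Hochberg over the 14217 genes of a comparison. An adjusted p under 0.05 is a call, and "rose" and "fell" are used of calls only. All doses were set against the same 5 vehicle rats. In whole liver, fewer cells of a type and less RNA per cell cannot be told apart.

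RefSeq promoter entries were matched for 5 of the 8 measured members, Stab2, Stab1, Lyve1, Kdr and Adgrl4. The 250 bases before the start are printed for the 3 members with the largest falls at 611 mg/kg, so that the letters in front of the genes that moved most can be read. They are from assembly GRCr8, read 5′ to 3′ in the direction of the gene, at chr7:23320563-23320812 (minus strand) for Stab2, chr1:174410978-174411227 (minus strand) for Lyve1 and chr2:243014689-243014938 (plus strand) for Adgrl4. Capitals mark matches, on either strand, to the motifs searched.
Stab2: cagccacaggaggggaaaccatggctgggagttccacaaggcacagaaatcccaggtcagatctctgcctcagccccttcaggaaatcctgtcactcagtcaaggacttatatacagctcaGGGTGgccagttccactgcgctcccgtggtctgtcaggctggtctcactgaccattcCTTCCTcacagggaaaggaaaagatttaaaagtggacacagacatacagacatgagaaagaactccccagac
Lyve1: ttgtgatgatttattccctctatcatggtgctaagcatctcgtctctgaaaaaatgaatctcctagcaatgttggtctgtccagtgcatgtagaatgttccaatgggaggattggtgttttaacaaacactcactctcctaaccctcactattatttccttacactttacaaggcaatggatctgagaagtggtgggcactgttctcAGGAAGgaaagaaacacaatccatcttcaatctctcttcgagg
Adgrl4: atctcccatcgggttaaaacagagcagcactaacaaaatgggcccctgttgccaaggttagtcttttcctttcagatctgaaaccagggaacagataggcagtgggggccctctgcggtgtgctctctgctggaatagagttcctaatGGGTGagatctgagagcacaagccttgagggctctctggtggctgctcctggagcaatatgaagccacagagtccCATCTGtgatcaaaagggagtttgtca
The motifs were 5 short cores of factor families known in endothelium. The ETS core AGGAAG was in 2 of the 5 members, in Stab2 at 72 to 67 bases before the start, where it reads CTTCCT on the printed strand, and in Lyve1 at 43 to 38 bases before it. It was in 29.4% of all 27457 promoters of this length. The KLF core CACCC was in 4 of the 5, all but Lyve1, and in 49.4% of all promoters, and the E-box CANNTG was in 2 of the 5, Stab1 and Adgrl4, and in 65.2%. The GATA core AGATAA, in 10% of all promoters, and the forkhead core TGTTTAC, in 3.25%, were in 0 of the 5. In 1 place matches overlapped, where 2 CACCC matches in Stab1 share a letter. A match is a description of the letters in this window only.

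At 611 mg/kg, 6 of the 8 markers fell: Stab2 to 53.3% of vehicle, Lyve1 to 61.0%, Adgrl4 to 64.2%, Stab1 to 70.4%, Kdr to 74.0% and Pecam1 to 76.9%. Tek and Vwf were lower on average and were not called. Among all genes 2.42% were called lower and 5.04% higher at this dose. The median difference was -0.47 over the 8 markers and 0.00 over all genes. At 305.5 mg/kg, 1 marker, Pecam1, fell, and at 76.5 and 153 mg/kg none was called.

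Stab2 is the main hyaluronan clearance receptor of the sinusoid. Its log2 signal was 9.76, 9.77, 10.09, 9.85 and 10.18 in the 5 vehicle rats, 9.82, 9.94 and 9.75 at 76.5 mg/kg and 10.07, 10.17 and 10.02 at 153 mg/kg. It was 9.15, 9.69 and 9.81 at 305.5 mg/kg and 9.09, 8.91 and 9.06 at 611 mg/kg. The 3 rats at 611 mg/kg were below every other rat, and at 305.5 mg/kg rat 1 stood near them while rats 2 and 3 were close to the lowest vehicle rats. Stab2 fell by 0.91 ± 0.13 (SE, n = 3 against 5) at 611 mg/kg, with a limma adjusted p of 0.000703. The difference at 305.5 mg/kg was -0.38 ± 0.13 with an adjusted p of 0.186, and without rat 1 of that dose it was -0.18.

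Lyve1 encodes a hyaluronan receptor of sinusoidal and lymphatic endothelium. Its log2 signal was 10.63, 10.60, 10.93, 10.56 and 10.84 with vehicle, 10.52, 10.41 and 10.75 at 76.5 mg/kg and 10.79, 10.76 and 10.89 at 153 mg/kg. It was 9.74, 10.36 and 10.54 at 305.5 mg/kg and 9.92, 10.02 and 10.05 at 611 mg/kg. All 6 rats of the higher doses were below every vehicle rat, and the lowest value of all was that of 305.5 mg/kg rat 1. Lyve1 at 611 mg/kg fell by 0.71 ± 0.14 (SE, n = 3 against 5, limma adjusted p = 0.00681). The difference at 305.5 mg/kg was -0.50 ± 0.14 with an adjusted p of 0.0828, and without rat 1 it was -0.26, while without rat 3 it was -0.66 with an adjusted p of 0.0412. A second Lyve1 probe set gave -0.63 at 611 mg/kg, with an adjusted p of 0.0607 over all probe sets.

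Stab1, the sister scavenger receptor of Stab2, is carried by sinusoidal endothelium and by some macrophages. Its log2 signal was 7.61, 7.74, 8.09, 7.85 and 8.10 with vehicle, 7.67, 8.13 and 7.60 at 76.5 mg/kg and 7.88, 7.97 and 7.79 at 153 mg/kg. It was 7.59, 7.46 and 7.36 at 305.5 mg/kg and 7.21, 7.48 and 7.41 at 611 mg/kg. The vehicle rats were spread widely, and no rat of the higher doses overlapped with them, though the highest at 305.5 mg/kg lay just under the lowest vehicle rat. Stab1 fell by 0.51 ± 0.13 at 611 mg/kg (SE, n = 3 against 5, limma adjusted p = 0.0287) and was at -0.41 ± 0.13 at 305.5 mg/kg (adjusted p = 0.142). The call at 611 mg/kg was lost without vehicle rat 3 (adjusted p = 0.0605), vehicle rat 5 (0.0687) or 611 mg/kg rat 1 (0.0911), rat 2 (0.0579) or rat 3 (0.0613).

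Kdr encodes the main signalling receptor for vascular endothelial growth factor (VEGF). Its log2 signal was 10.17, 9.98, 10.12, 10.16 and 10.14 with vehicle, 10.00, 10.25 and 9.84 at 76.5 mg/kg and 10.27, 10.23 and 10.31 at 153 mg/kg. It was 9.57, 9.88 and 9.89 at 305.5 mg/kg and 9.59, 9.74 and 9.72 at 611 mg/kg. The 6 rats of the higher doses were below every vehicle rat, and the 3 rats at 153 mg/kg were above every vehicle rat. Kdr fell by 0.43 ± 0.10 at 611 mg/kg (SE, n = 3 against 5, limma adjusted p = 0.0141) and was at -0.34 ± 0.10 at 305.5 mg/kg (adjusted p = 0.0969). At 153 mg/kg the difference was 0.15 ± 0.10 with an adjusted p of 0.563, and 8.3% of all genes had all 3 rats of that dose above every vehicle rat. Without 611 mg/kg rat 1 the call at 611 mg/kg was lost (adjusted p = 0.0519). It was lost too with the mean over both Kdr probe sets (-0.20, adjusted p = 0.142), the second of which was dim (mean log2 signal 5.75) and gave 0.03 at 611 mg/kg. The difference at 305.5 mg/kg was called without 76.5 mg/kg rat 2 (adjusted p = 0.0491) or rat 3 (0.049).

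Tek, the receptor for angiopoietins also known as Tie2, had log2 signals of 8.45, 8.51, 8.63, 8.45 and 8.56 with vehicle, 8.39, 9.0 and 8.41 at 76.5 mg/kg and 8.51, 8.62 and 8.69 at 153 mg/kg. It was 8.18, 8.13 and 7.94 at 305.5 mg/kg and 8.08, 8.43 and 8.21 at 611 mg/kg. All 6 rats of the higher doses were below every vehicle rat, with 611 mg/kg rat 2 just under the lowest of them, and 76.5 mg/kg rat 2 was the highest of all. Neither dose passed the test, with -0.44 ± 0.13 at 305.5 mg/kg (SE, n = 3 against 5, limma adjusted p = 0.0848) and -0.28 ± 0.13 at 611 mg/kg (adjusted p = 0.179). Both rats named here are among the 3 arrays least correlated with the rest. With these left out Tek was called at 611 mg/kg (-0.38, adjusted p = 0.0282) and at 305.5 mg/kg (-0.44, adjusted p = 0.00656). Leaving out 76.5 mg/kg rat 2 alone also gave a call at 305.5 mg/kg (adjusted p = 0.0165).

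Adgrl4 encodes an adhesion G protein-coupled receptor of endothelial cells. Its log2 signal was 8.18, 7.92, 8.17, 7.99 and 8.19 with vehicle, 8.02, 8.56 and 8.02 at 76.5 mg/kg and 8.15, 8.32 and 8.25 at 153 mg/kg. It was 7.79, 7.87 and 7.83 at 305.5 mg/kg and 7.50, 7.43 and 7.41 at 611 mg/kg. The 3 rats at 611 mg/kg were the lowest of all, those at 305.5 mg/kg came next, and neither group overlapped with the vehicle rats. Adgrl4 fell by 0.64 ± 0.11 at 611 mg/kg (SE, n = 3 against 5, limma adjusted p = 0.00317). Its difference of -0.26 ± 0.11 at 305.5 mg/kg was the smallest of the 8 (adjusted p = 0.32).

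Pecam1, the adhesion protein CD31 of endothelial cell contacts, had log2 signals of 8.17, 8.17, 8.30, 8.05 and 8.14 with vehicle, 8.08, 8.31 and 8.26 at 76.5 mg/kg and 8.18, 8.15 and 8.03 at 153 mg/kg. It was 7.77, 7.82 and 7.80 at 305.5 mg/kg and 7.70, 7.84 and 7.82 at 611 mg/kg. The 6 rats of the higher doses lay in a narrow band under all 11 others. Pecam1 fell by 0.37 ± 0.08 at 305.5 mg/kg (SE, n = 3 against 5, limma adjusted p = 0.0236) and by 0.38 ± 0.08 at 611 mg/kg (adjusted p = 0.0107). The call at 305.5 mg/kg was lost when vehicle rat 1 (adjusted p = 0.054) or rat 3 (0.0641), or rat 1 (0.107), rat 2 (0.0811) or rat 3 (0.0927) of that dose, was left out.

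Vwf encodes the von Willebrand factor that endothelial cells store and release for platelet adhesion. Its probe set was within the dimmest 40% of genes. Its log2 signal was 6.84, 7.06, 7.03, 7.06 and 7.20 with vehicle, 6.97, 7.04 and 6.69 at 76.5 mg/kg and 7.02, 6.88 and 6.90 at 153 mg/kg. It was 6.39, 6.83 and 6.64 at 305.5 mg/kg and 6.52, 7.19 and 6.78 at 611 mg/kg. Rat 2 at 611 mg/kg was close to the highest vehicle rat while the other two were below all of them. The difference was -0.42 ± 0.14 at 305.5 mg/kg (SE, n = 3 against 5, limma adjusted p = 0.137) and -0.21 ± 0.14 at 611 mg/kg (adjusted p = 0.359). The value at 611 mg/kg was -0.39 without rat 2 (adjusted p = 0.125) and -0.06 without rat 1 (adjusted p = 0.827). With the 3 least correlated arrays left out Vwf was called at 305.5 mg/kg (adjusted p = 0.0316).

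**Figure D1:**
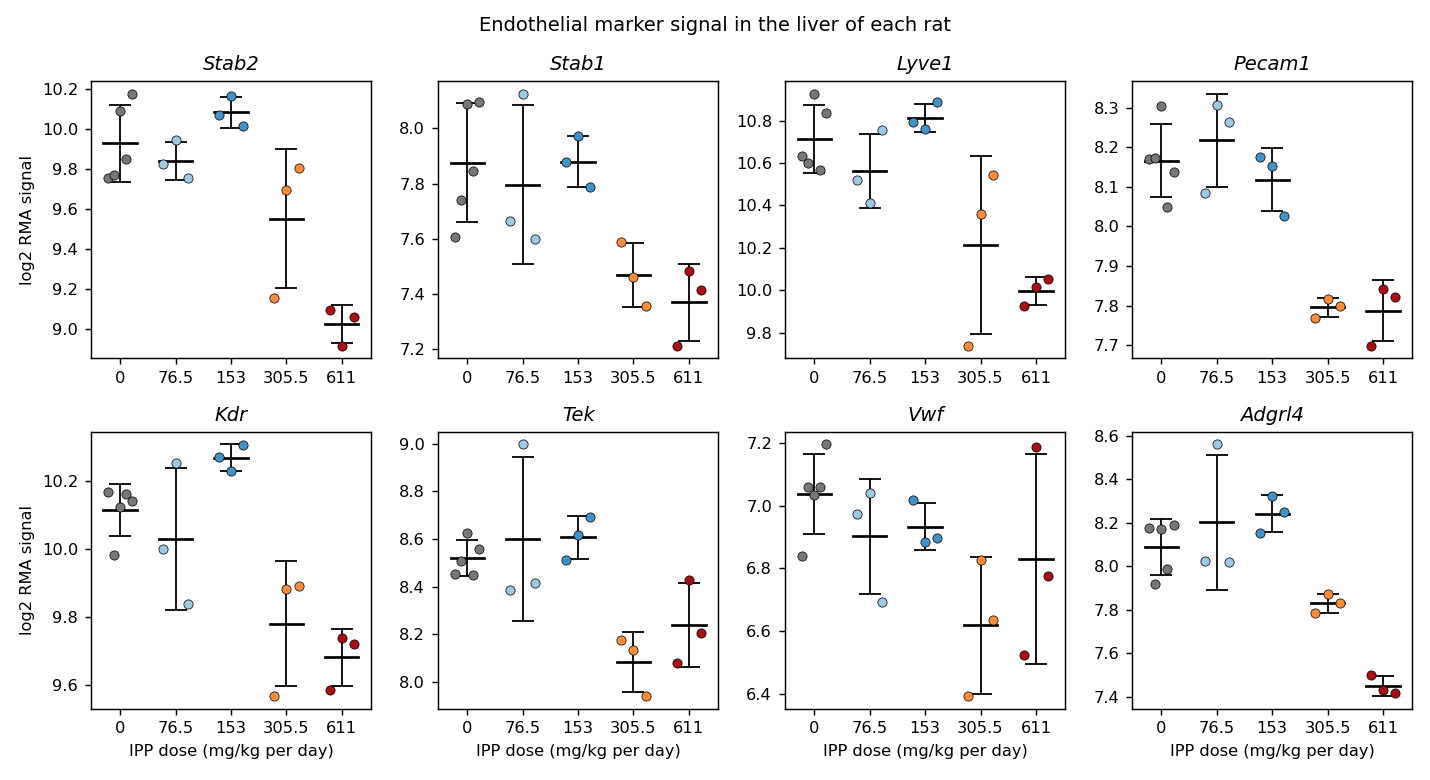
Log2 signal (vertical axes) of the 8 measured endothelial markers in each of 17 rats by IPP dose in mg/kg per day (horizontal axes, 0 is vehicle). Points are rats, and bars give the group mean ± SD. Values at 76.5 and 153 mg/kg overlap with vehicle for most markers, and those at 611 mg/kg lie below every vehicle rat for 7 of the 8.

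Read dose by dose, the markers had little to show at the lower doses. At 76.5 mg/kg, 0 of 8 were called and 0 had an unadjusted p under 0.05 in the limma fit, with differences from -0.15 for Lyve1 to 0.11 for Adgrl4 and 95% intervals that all spanned 0. Background calls were 0.127% of genes lower and 0.141% higher. At 153 mg/kg, 0 of 8 were called and 0 had an unadjusted p under 0.05, with differences from -0.11 for Vwf to 0.15 for Stab2, Kdr and Adgrl4, against 0.338% of genes called lower and 0.408% higher. Array weights and the other alternatives likewise gave 0 calls at both doses. The widest intervals, those of Lyve1, reached from -0.45 to 0.15 at 76.5 mg/kg and from -0.20 to 0.40 at 153 mg/kg, so shifts within these bounds cannot be told from 0.

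At 305.5 mg/kg all 8 markers were below vehicle, by 0.26 to 0.50 on the log2 scale, and all 8 had an unadjusted p under 0.05, but 1 of 8 passed after adjustment, against 1.47% of genes called lower and 0.753% called higher. The median was -0.39 over the markers and 0.01 over all genes. Of the 24 values of the markers at this dose, 23 were below every vehicle rat, and 7 markers (all but Stab2) had all 3 rats below, against 7.34% of all genes. The count of calls was 0 without vehicle rat 1, vehicle rat 3 or 305.5 mg/kg rat 1 or rat 2, 2 when 76.5 mg/kg rat 3 was left out and 3 when rat 2 of that dose was. It was 4 with the 3 least correlated arrays left out and 5 with array weights. Those weights were very uneven, from 0.27 for 76.5 mg/kg rat 3 to 5.04 for rat 1 of the same dose. How far the weight of that array shaped the counts was not tested.

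At 611 mg/kg the same count of values, 23 of 24, was below every vehicle rat, and the exception was Vwf in rat 2. All 3 rats were below for 7 of 8 markers, against 7.13% of all genes. Stab2, Lyve1, Adgrl4 and Pecam1 stayed called under all 29 alternatives tried for each, with adjusted p up to 0.00871, 0.027, 0.0269 and 0.0426. With the GAPDH 3' minus 5' difference as a covariate the 6 calls remained, at -0.86 for Stab2, -0.67 for Lyve1, -0.65 for Adgrl4, -0.56 for Stab1, -0.44 for Kdr and -0.40 for Pecam1.

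**Figure D2:**
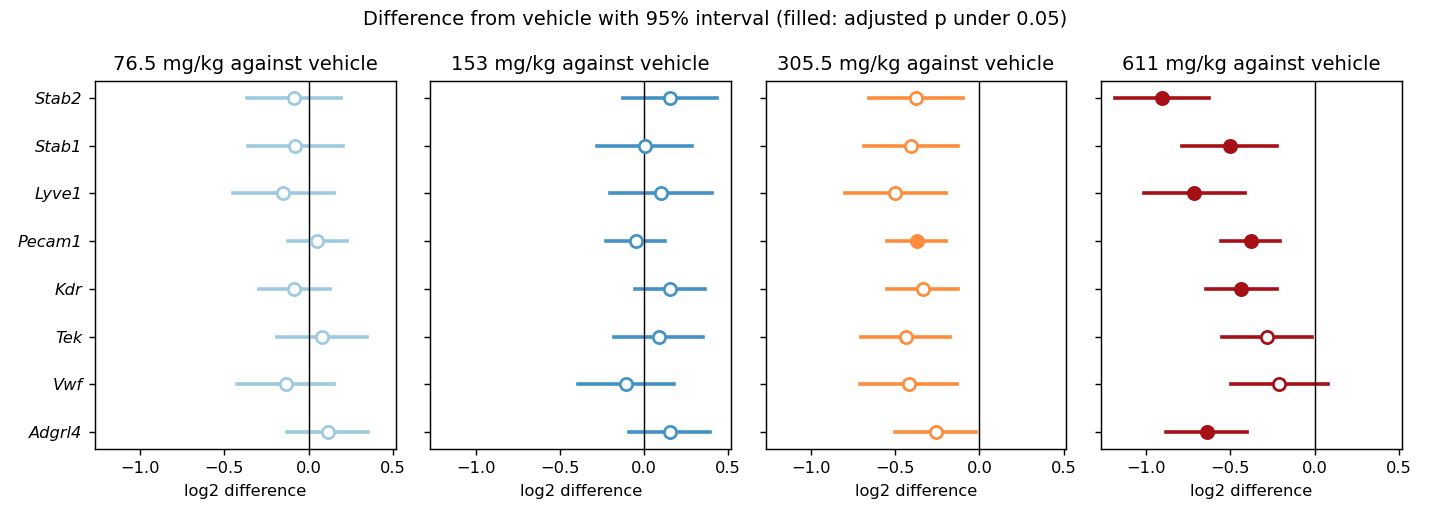
Log2 difference from vehicle (horizontal axes) of each endothelial marker (rows) at 4 doses, with the 95% interval from the limma fit as a line. Filled points had an adjusted p under 0.05: none at 76.5 or 153 mg/kg, Pecam1 at 305.5 mg/kg, and 6 of 8 at 611 mg/kg.

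Set against one another, the doses gave fewer calls. From 305.5 to 611 mg/kg, 0 of 8 markers were called by limma and 2 had an unadjusted p under 0.05, Stab2 (-0.53 ± 0.15, adjusted p = 0.149) and Adgrl4 (-0.38 ± 0.13, adjusted p = 0.201), both with n = 3 against 3. Tek (0.15) and Vwf (0.21) were higher at 611 than at 305.5 mg/kg on average, with adjusted p of 0.602 and 0.503. Of all genes 0.0352% were called lower and 0.288% higher in this comparison. Without 305.5 mg/kg rat 1 there was 1 call, and with array weights 2. From 153 to 305.5 mg/kg, a comparison added after the values were seen, the 8 differences ran from -0.31 to -0.60 and 7 had an unadjusted p under 0.05. None was called, and across all 14217 genes 0% were called lower and 0% higher, although 1338 had an unadjusted p under 0.05 and array weights called 210 genes, 3 of them markers.

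The mean of 305.5 and 611 mg/kg was then set against the mean of 76.5 and 153 mg/kg, also after the values were seen. The vehicle rats are left out of this difference of means, but they still add to the spread in the fit over all 17 arrays. Adgrl4 (-0.58 ± 0.09, limma adjusted p = 0.0124), Stab2 (-0.68 ± 0.11, 0.0124), Pecam1 (-0.38 ± 0.07, 0.0246), Kdr (-0.42 ± 0.08, 0.0327) and Lyve1 (-0.58 ± 0.11, 0.0329) were lower in the higher doses with n = 6 against 6. Tek (-0.44, 0.0736), Stab1 (-0.42, 0.11) and Vwf (-0.19, 0.605) were not called. Of all genes 0.225% were called lower and 0.0844% higher. All 6 rats of the higher doses were below all 6 of the lower doses for Stab1, Pecam1 and Adgrl4, against 0.528% of all genes. The count of 5 became 2 when 153 mg/kg rat 1 or 611 mg/kg rat 1 was left out, and 3 on omission of 153 mg/kg rat 2 or rat 3, 305.5 mg/kg rat 1 or rat 3, or 611 mg/kg rat 3. It was 1, Adgrl4, with the 3 least correlated arrays left out and 1, Stab2, with the fit limited to these 4 groups.

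Over the rank of the group, from 0 for vehicle to 4 for 611 mg/kg, 6 of 8 markers had a called falling slope. Per rank these were -0.19 for Stab2 (limma adjusted p = 0.0107), -0.17 for Lyve1 (0.0135), -0.15 for Adgrl4 (0.0186), -0.13 for Stab1 (0.0193), -0.11 for Pecam1 (0.0049) and -0.10 for Kdr (0.0396), over 17 rats. Tek (-0.10, adjusted p = 0.0877) and Vwf (-0.07, 0.182) were not called, and 2.78% of all genes had a called falling slope and 3.96% a called rising one. A slope averages over ranks, and none of the markers was called against vehicle at the first 2 ranks. The count was 3 without 611 mg/kg rat 1 and 4 without vehicle rat 5 or 611 mg/kg rat 3. For the mean of the 4 doses against vehicle, 0 of 8 were called, 6 had an unadjusted p under 0.05, and the median was -0.20, against 1.83% of genes called lower and 2.18% higher. Array weights gave 5 calls there.

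Across the 17 rats the signals of the markers varied together to differing degrees. Pearson's r over the 28 pairs ran from 0.343 for Vwf with Adgrl4 to 0.914 for Stab2 with Lyve1, with a median of 0.75. These points share dose groups and arrays. With each group's mean removed, r ran from -0.233 for Lyve1 with Tek to 0.781 for Stab1 with Tek, with a median of 0.365, and 25 of 28 pairs were above 0. Stab2 and Lyve1 kept an r of 0.733 in this form, Tek and Adgrl4 0.706 and Kdr and Adgrl4 0.633, while Stab2 with Tek was at 0.008.

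**Figure D3:**
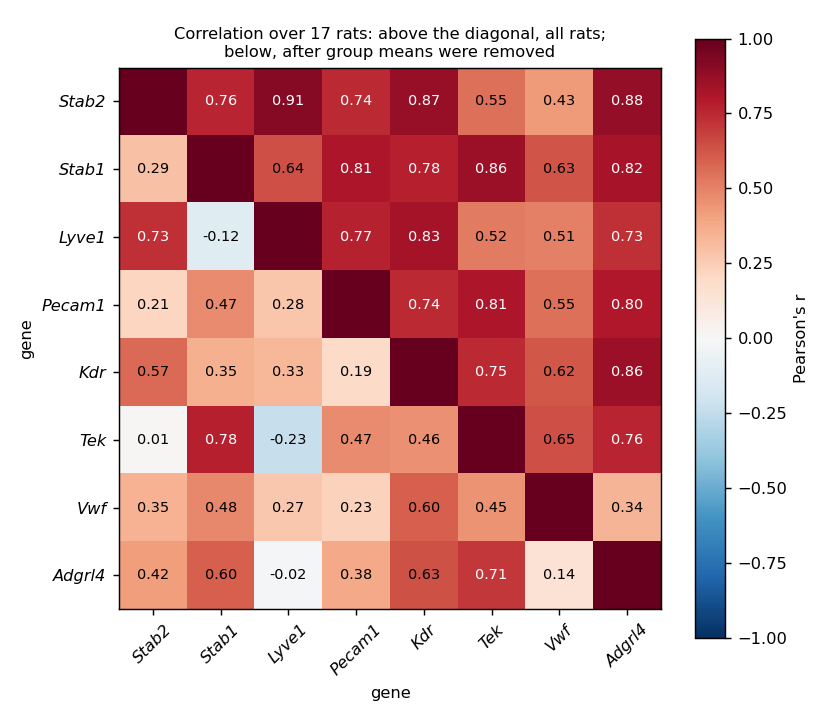
Pearson's r between endothelial markers (rows and columns) over 17 rats, from blue (-1) to red (1). Values above the diagonal use all rats as measured, with Stab2 and Lyve1 highest at 0.914, and those below use each rat's deviation from its group mean, with Stab1 and Tek highest at 0.781.

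Of the other 14209 genes, the 10 whose signal was most correlated with the mean of the 8 markers over 17 rats were Mrc1 (r = 0.945), Timp2 (0.941), Adam23 (0.915), Fcgr2b (0.914), Dnase1l3 (0.912), Srgn (0.903), Lhfpl2 (0.894), Fam167b (0.891), Gatm (0.888) and Elk3 (0.885). The median r over all genes was -0.004. Mrc1 encodes the mannose receptor, Fcgr2b an inhibitory receptor for immune complexes and Dnase1l3 a secreted nuclease, and these 3 are in the list of other sinusoidal endothelial genes. That list was chosen with earlier results of these data known, so the match is no independent support. Mrc1 is also among the Kupffer cell and macrophage markers. With group means removed, r was 0.828 for Mrc1, 0.754 for Elk3 and 0.349 for Lhfpl2. Taken singly, the nearest gene was Dnase1l3 for Stab2 (0.961), Fcgr2b for Lyve1 (0.959), Mrc1 for Adgrl4 (0.943), Adam23 for Pecam1 (0.917), Atoh8 for Stab1 (0.912), Fam167b for Kdr (0.894), Tspan13 for Tek (0.893) and Nid1 for Vwf (0.858).

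Of 19 other genes of sinusoidal endothelium measured, 6 fell and 0 rose at 611 mg/kg, 13 were not called, and the median was -0.33. Beside the counts of this and the later lists, 2.42% of all genes were called lower and 5.04% higher at that dose. At 305.5 mg/kg these shares were 1.47% and 0.753%. Dnase1l3 (-0.83 ± 0.10, limma adjusted p = 0.000131), Mrc1 (-0.61 ± 0.10, 0.00197) and Fcgr2b (-0.79 ± 0.15, 0.00547) were called under all 29 alternatives, and Gpr182, an endothelial orphan receptor (-0.49 ± 0.12, 0.0247), lost its call without 611 mg/kg rat 1 or rat 3. With 1 rat left out the count was 3 to 6. Of the 19, 2 fell at 305.5 mg/kg, Gpr182 (-0.53, adjusted p = 0.0296) and Dnase1l3 (-0.40, 0.0362). Gpr182 lost this call without any 1 of the vehicle rats or without 305.5 mg/kg rat 1, and Dnase1l3 without vehicle rat 1, rat 3 or rat 5 or any 1 rat of that dose.

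Among 34 other pan-endothelial genes, 6 fell and 0 rose at 611 mg/kg, with a median of -0.25. The 4 with the smallest p were Cd93, a receptor of endothelial adhesion (-0.74 ± 0.16, limma adjusted p = 0.00911), Sox7, an endothelial transcription factor (-0.59 ± 0.13, 0.0099), Esam, an adhesion protein of cell contacts (-0.46 ± 0.11, 0.0206), and Ramp2, a partner of the adrenomedullin receptor (-0.71 ± 0.18, 0.0265). Sox7 was called under all the alternatives in which it was tested. Its mean log2 signal with vehicle was 5.33, against 7.04 for Vwf, so Sox7 too was within the dimmest 40% of genes. Sox7 was lower but not called at 153 mg/kg (-0.40, limma adjusted p = 0.214) and at 76.5 mg/kg (-0.26, 0.485). Of the 34, 0 were called at these doses, and 21 were below 0 at 153 mg/kg and 18 at 76.5 mg/kg. The median was -0.04 at both. The 2 with the smallest p at 76.5 mg/kg went opposite ways, S1pr1 (-0.46, limma adjusted p = 0.22) and Klf4 (0.40, 0.264). Without 611 mg/kg rat 2, Cd93, Esam and Ramp2 lost their calls, Esam and Ramp2 also without vehicle rat 5, and Ramp2 also without vehicle rat 3 or 611 mg/kg rat 3, and the count over 1 rat left out was 2 to 8. Of the 34, 3 fell at 305.5 mg/kg, Sox7 (-0.76, adjusted p = 0.00393), Icam2 (-0.49, 0.0175) and Thbd, the thrombin receptor of vessel walls (-0.68, 0.0204). The call of Icam2 was lost without any 1 of the 3 rats of that dose and that of Thbd without rat 1 or rat 3 or without vehicle rat 1 or rat 3.

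Partners of the markers were described by pathway. Of 16 VEGF and angiopoietin ligands and receptors besides Kdr and Tek, 0 were called by limma at either higher dose, with 5 at an unadjusted p under 0.05 at 305.5 mg/kg and 4 at 611 mg/kg, and a median of -0.16 at 611 mg/kg. Array weights and the other alternatives gave 0 to 2 calls at either dose. The nearest to a call there were Tie1, the sister receptor of Tek (-0.56 ± 0.17, limma adjusted p = 0.0567), and Flt4, VEGF receptor 3 (-0.33 ± 0.10, 0.0609). Nearest at 305.5 mg/kg was Ptprb, a phosphatase that acts on Tek (-0.52 ± 0.13, 0.0535). Of 16 junction genes that work beside Cdh5 and Pecam1, 2 fell at 611 mg/kg, Esam and Icam2 (-0.36, 0.0431), with a median of -0.04, and Icam2 kept its call in 11 of 29 alternatives and lost it on omission of 12 single rats, among them 611 mg/kg rats 2 and 3.

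Of 14 scavenger and hyaluronan receptor genes besides Stab1, Stab2 and Lyve1, 2 fell at 611 mg/kg, Mrc1 and Fcgr2b, and 1 rose, Hmmr (1.10 ± 0.21, limma adjusted p = 0.0057), which binds hyaluronan and is also a protein of the mitotic spindle. None of the 14 was called at 305.5 mg/kg, where 5 had an unadjusted p under 0.05 and the alternatives gave 0 to 4 calls. Of 12 genes for partners of von Willebrand factor and vessel wall haemostasis, Anxa2 fell (-0.70 ± 0.14, 0.00658) and Pros1, the anticoagulant protein S, rose (0.31 ± 0.08, 0.0278) at 611 mg/kg. Of all genes 2.42% were called lower and 5.04% higher at that dose, so 1 call each way in so short a list says little about the list. The call of Pros1 was lost without vehicle rat 1 or rat 4 or 611 mg/kg rat 1 or rat 3. Of 11 angiocrine genes, through which endothelium signals to its neighbours, 3 fell at 611 mg/kg: the Notch ligand Jag1 (-0.44, 0.0327), Ltbp4 (-0.54, 0.0352) and Igfbp7 (-0.54, 0.0416). All 3 lost their calls without any 1 of the 611 mg/kg rats or without vehicle rat 3 or rat 5, and Ltbp4 and Igfbp7 without further rats too. Jag1 fell at 305.5 mg/kg (-0.62, 0.00888), a call lost without rat 3 of that dose. Jag1 was lower but not called at 153 mg/kg (-0.52, limma adjusted p = 0.0506) and at 76.5 mg/kg (-0.27, 0.432). Of the 11 angiocrine genes, 8 were below 0 at 153 mg/kg (median -0.10) and 7 at 76.5 mg/kg (median -0.01). The lists share genes, so their counts are not separate: Mrc1 stands in 3 of them.

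**Figure D4:**
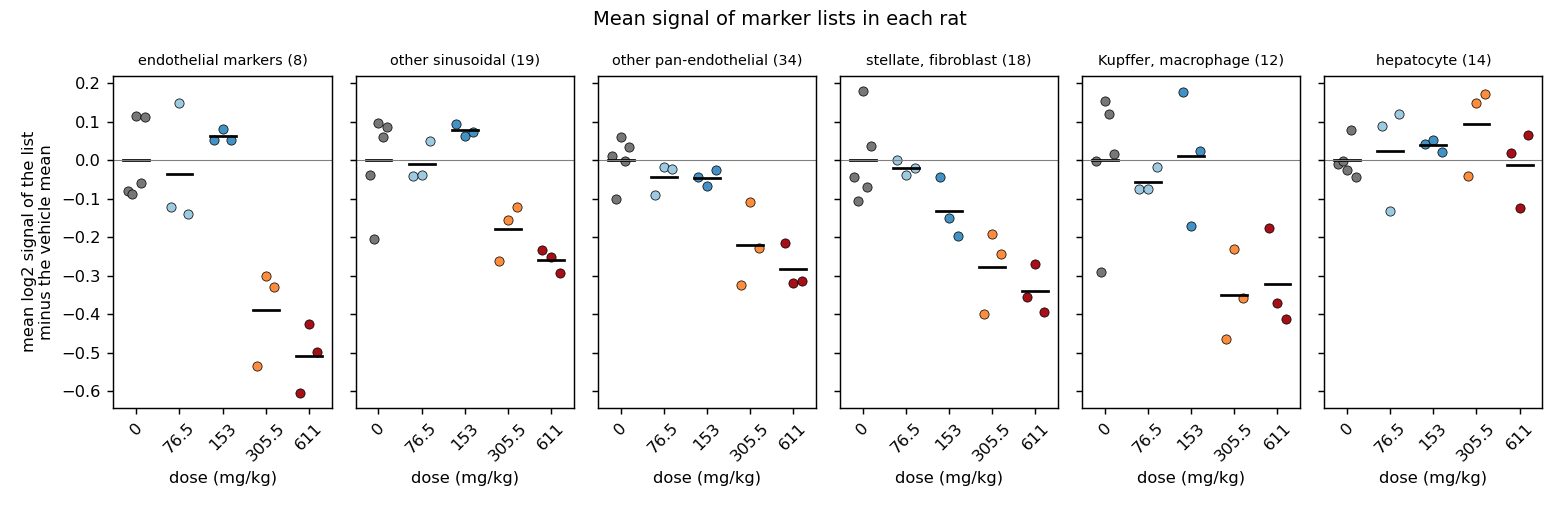
Mean log2 signal of a marker list in each rat minus the vehicle mean (vertical axis) by dose in mg/kg (horizontal axes), for the 8 endothelial markers, 2 further endothelial lists and 3 lists of other liver cell types, with the number of genes in brackets. Points are rats and bars are group means. At 611 mg/kg the endothelial markers lie 0.43 to 0.60 below the vehicle mean, the stellate list 0.27 to 0.40 and the Kupffer list 0.18 to 0.41 below it, and the hepatocyte list between -0.12 and 0.07.

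Markers of other cell types beside the sinusoid were read at the same doses. The 18 stellate cell and fibroblast markers averaged a log2 signal of 7.57 to 7.86 in vehicle rats, 7.64 to 7.68 at 76.5, 7.48 to 7.63 at 153, 7.28 to 7.48 at 305.5 and 7.28 to 7.41 at 611 mg/kg. At 153 mg/kg 0 of 18 were called, but 2 of 3 rats had a stellate mean below every vehicle rat. Of the 18 differences at that dose 12 were below 0, with a median of -0.14. Among them were the 3 genes called at 611 mg/kg, Pdgfrb (-0.64, limma adjusted p = 0.0633), Tagln (-0.65, 0.151) and Acta2 (-0.39, 0.226). Among those above 0 were Lum (0.48, 0.528) and Rgs5 (0.25, 0.461). At 611 mg/kg 3 of 18 fell, Pdgfrb (-0.80, limma adjusted p = 0.00466), Tagln (-0.77, 0.0178) and Acta2 (-0.51, 0.0226), with a median of -0.30, and at 305.5 mg/kg Vim, Pdgfrb and Pdgfra fell, with a median of -0.29. Without 611 mg/kg rat 2 or rat 3 Tagln and Acta2 lost their calls, Acta2 also without vehicle rat 5, and at 305.5 mg/kg Pdgfrb and Pdgfra lost theirs without rat 1 and Pdgfra without rat 2. The 12 Kupffer cell and macrophage markers averaged 9.27 to 9.72 with vehicle, 9.49 to 9.55 at 76.5, 9.39 to 9.74 at 153, 9.10 to 9.33 at 305.5 and 9.15 to 9.39 at 611 mg/kg. At each of the higher doses 2 of 3 rats had a Kupffer mean below every vehicle rat. By limma 0 of the 12 were called at 305.5 mg/kg, with 7 at an unadjusted p under 0.05 and 0 to 4 calls under the alternatives. The 1 that fell at 611 mg/kg was Mrc1, which sinusoidal endothelium also carries, and the medians were -0.35 at 305.5 and -0.34 at 611 mg/kg. The part of stellate cells and macrophages in the endothelial results was not tested.

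Of 14 hepatocyte markers 0 were called by limma at 305.5 or 611 mg/kg, with 2 at an unadjusted p under 0.05 at each dose, and their median at 611 mg/kg was -0.06. Their mean signal was 13.8 to 14.1, against a highest value of 15.36 on any array. In vehicle rats Alb was at 15.34 and Tat at 9.45. Whether differences are flattened near the top of the scale was not tested. The alternatives gave 0 to 1 calls. Of the 6 red cell markers 2 fell at 611 mg/kg, Hbb (-1.63, limma adjusted p = 0.000689) and Alas2 (-1.34, 0.0028), and their mean signal was 7.46 to 7.57 in vehicle rats and 6.72 to 7.09 at 611 mg/kg. Their part in the endothelial results was not tested. None of the red cell markers was called at 305.5 mg/kg or had an unadjusted p under 0.05 there, and their median at that dose was -0.11. Of 12 lymphocyte markers Ltb rose at 611 mg/kg (0.88, limma adjusted p = 0.029), but 10 of the 12 were below 0, with a median of -0.14. Of these 12, 5 had an unadjusted p under 0.05. Of 8 cholangiocyte markers Epcam (0.72, 0.0167) and Krt18 (0.42, 0.04) rose and Krt7 (-0.43, 0.0332) fell at that dose. Each of these 4 calls was lost without at least 1 single rat, that of Epcam without 611 mg/kg rat 2. The shares over all genes at that dose were 2.42% called lower and 5.04% called higher. None of the 9 neutrophil, 7 platelet, 7 other lymphatic or 6 mesothelial markers was called at 611 mg/kg, with 1 neutrophil and 2 lymphatic markers at an unadjusted p under 0.05. The neutrophil markers averaged 6.87 in 76.5 mg/kg rat 3, against 5.61 to 5.99 with vehicle. This mean is uneven over the 9 genes. In the group differences at that dose Lcn2 was at 1.59, S100a9 at 0.95 and S100a8 at 0.75. The median was 0.18, 3 of the 9 were below 0 and 0 were called.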

How the data were processed

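Liver RNA from 17 rats was hybridised to 1 Affymetrix rat array each. The deposited values are log2 signals made by the authors with RMA, per the submitters' processing notes, which combine background correction, quantile normalization and a summary per probe set. The version of that software is not given in the sources used here. RMA forces the arrays to 1 distribution of values, so differences are relative to the other genes on an array.

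Of 31099 probe sets, 20826 carried 1 gene symbol in the platform table (annotation of 2016), 436 several, 9780 none, and 57 were controls. Of the first, 20758 matched RefSeq by gene ID. The brightest probe set over all arrays stood for each of 14217 genes, a choice for 4525 of them. Groups came from the labels, which give rats as separate animals.

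limma 3.58.1 in R 4.3.3 fitted the 5 groups as a factor over all 17 arrays (eBayes with trend), with Benjamini-Hochberg adjustment over all genes. The script was tested on simulated data. The slope took the group ranks as numbers. Other settings tried were averaging a gene's probe sets or testing each one, leaving out the dimmest 40% of genes, centring arrays on their medians, a second quantile normalization, array weights, moderation that was robust or had no trend, replicate number as a block, a fit of only the groups compared, leaving out 3 arrays or any 1 rat, the GAPDH difference as covariate, and other thresholds.

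The markers, the 17 other gene lists and the alternatives were chosen with earlier results of these data known, and 2 comparisons were added after their values were seen. All markers are named. From each list the genes called are named where 5 or fewer were, otherwise the 4 with the smallest p, and where none was called up to 2. The 10 genes most correlated with the marker mean and the nearest gene of each marker are named too.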

Additional observations from a re-analysis of the deposited data

Results flagged for a closer look

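Kdr in the vehicle group had 1 rat away from the rest: rat 2 at a log2 signal of 9.98, against 10.12 to 10.17 in the other 4. Of the markers' vehicle groups, 8 were examined for such a gap, and chance gives about 1 in 20. The gap does not reach the higher doses, where all 6 Kdr values were under 9.98.

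The mean of 305.5 and 611 mg/kg minus the mean of 76.5 and 153 mg/kg in the limma fit was, on the log2 scale, -0.68 for Stab2, -0.58 for Lyve1, -0.38 for Pecam1, -0.42 for Kdr and -0.58 for Adgrl4, each with an adjusted p under 0.05. The comparison was chosen after the values had shown this split of the doses, so it describes the split and is no independent test of it. With the compared groups alone 1 call held, Stab2, and without the 3 least correlated arrays 1 held, Adgrl4, so no marker was called in both.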

How the results depend on the processing

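The count of called markers at 305.5 mg/kg, 1 in the report, was 2 with quantile normalization repeated, 5 with array weights, 0 with the replicate block, 2 with the compared groups alone, 4 without the 3 arrays apart, 0 at an adjusted p under 0.01 and 4 under 0.10, and 0 to 3 with 1 rat left out. At 611 mg/kg the count of 6 was 3 under 0.01 and 4 to 6 with 1 rat left out. For the mean of the 4 doses it was 0, and 1 with quantile normalization, 5 with array weights, 1 without the 3 arrays and 2 under 0.10. From 305.5 to 611 mg/kg it was 0, 2 with array weights, and 0 to 1 with 1 rat left out. From 153 to 305.5 mg/kg it was 0, and 3 with array weights. Between the higher and lower doses it was 5, 1 with the compared groups alone, 1 without the 3 arrays, 0 under 0.01, and 2 to 6 with 1 rat left out. For the slope it was 6, 2 with the replicate block, 1 under 0.01, and 3 to 6 with 1 rat left out. Stricter thresholds lower a count by construction, and the cause of the other changes was not tested. At 76.5 and 153 mg/kg it was 0 in all 31 alternatives.

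Over the 72 marker results (8 markers in 9 comparisons), 18 were called, 6 of them in every alternative, and 0 were reversed. A change of sign counted as reversed only where the result was called in the report or in the alternative. Of 2241 alternative results with neither call, for the markers and other named genes, 21 changed sign. Replicate numbers were not taken as pairs, because the labels tie them to nothing and the correlations of same-numbered rats of different groups were not all over 0.1 (-0.26 to 0.40, 30 pairs, median 0.011). That 10 of 15 rats correlated best with their own number is a hint from the data, with no chance value computed. With the replicate block, Stab1 and Kdr at 611 mg/kg (adjusted p = 0.139 and 0.0953) and Pecam1 at 305.5 mg/kg (0.0556) were not called. Array files before normalization were not used here, so no signal over background was available. Among the 8 markers this matters most for Vwf, and it matters also for the dimmer Sox7.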
